A study of Mus musculus with 12 samples.

Results

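Peroxisomes are small membrane-bound organelles that shorten very long chain, branched and bile acid precursor fatty acids, and they are abundant in hepatocytes. Their enzymes are made in the cytosol and carried in by peroxins, the proteins that build the organelle and its import machinery. ABCD carriers bring acyl-CoA esters inside, acyl-CoA oxidases start each round of chain shortening and release hydrogen peroxide, and catalase breaks that peroxide down. In rodent liver many of these genes are targets of PPARα, a nuclear receptor that binds fatty acids and is active in fasting.

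The genes described here are 35 genes of peroxisome assembly and peroxisomal lipid oxidation, taken by symbol from a count table of 56441 genes in mouse liver, which writes symbols in capitals (PEX5, EHHADH, CAT). They comprised 13 peroxins, 10 enzymes of beta-oxidation, 6 carriers and thioesterases, and 6 oxidases and other peroxisomal proteins. All 35 had enough reads to be tested, among 15228 tested genes.

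The study asked whether fumarate hydratase (FH), the citrate cycle enzyme that turns fumarate into malate, protects against fatty liver. Mice aged 6 to 8 weeks received AAV8, an adeno-associated virus described as liver-specific, through the tail vein, carrying either FH or vector alone. Of the 4 groups of 3 libraries, 1 pair (FH and vector) came from C57BL/6 mice fasted for 24 h at 1 month after injection. The other pair came from ob/ob mice, which lack leptin and are obese, kept on a high-fat diet (HFD) for 1 month after injection. The labels name the tissue as liver and also as primary hepatocytes. They name no promoter for the transgene and do not say whether each library is a mouse of its own, so a p-value here reflects variation among 3 libraries that could be technical.

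Library totals ran from 12231828 to 14884323 counts in the 6 vector libraries and from 19107050 to 25873379 in the 6 FH libraries. Levels are CPM, read counts per library size after TMM scaling, which sets the typical gene equal between libraries, and changes are thus relative to the typical gene. On library totals instead, the median of all genes moved by -0.71 (log2) with FH in the fasted mice and by -0.63 in ob/ob. Fh1 itself was higher with FH in both models, by 1.35 (log2, edgeR adjusted p = 9.95e-05) in fasted and 2.48 (adjusted p = 1.79e-06) in ob/ob mice.

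The hepatocyte label was checked against markers. On library totals 9 hepatocyte markers summed to 59613 to 79000 CPM in fasted vector, 112880 to 125130 in fasted FH, 63813 to 78152 in ob/ob vector and 122650 to 137650 in ob/ob FH libraries. Markers of other liver cells were present in every group. Endothelial markers (11 genes) summed to 480.4 to 642 CPM with vector and 156 to 181 with FH in fasted mice, and to 404 to 491 and 329 to 440.4 in ob/ob mice. Kupffer cell markers (12 genes) summed to 569.7 to 762 CPM with vector and 192 to 213 with FH in fasted mice, and to 490.2 to 750.3 and 603 to 898 in ob/ob mice, so that hepatocyte markers were higher with FH in both models, the other 2 lists were lower with FH in fasted mice, and their ranges overlapped in ob/ob mice. On TMM scaling the ob/ob ranges did not overlap, at 294 to 372 (vector) and 399 to 486 (FH) for endothelial and 357 to 559 and 731.5 to 1010.1 for Kupffer cell markers. Their part in the results below was not tested, and in bulk liver fewer cells of a type and less RNA per cell cannot be told apart.

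Libraries also stood apart in ways that bear on the ob/ob comparison. On library totals, the 3 ob/ob FH libraries had Xist, the X-inactivation transcript, at 95.6 to 212 CPM and 0 counts of 4 Y-linked genes. The other 9 libraries had Xist at no more than 1.17 CPM and a Y-linked sum of 113 to 365 CPM, so that FH and sex cannot be told apart in ob/ob mice. Among the vector libraries of that model, replicate 2 differed from replicates 1 and 3. Its summed level of 11 male-biased liver genes, on library totals, was 18303 CPM, against 1984.5 and 4669 in the others. That of replicate 2 lay within the range of the fasted vector libraries (16946 to 20616 CPM), and those of replicates 1 and 3 lay below it. Which of these ob/ob libraries is typical of the model was not tested. Replicate 2 was also the lowest of its group in 25 of the 35 peroxisome genes, as the map of levels by library shows. Such a lean was not particular to it. Fasted vector replicate 3 was the lowest in 23 of 34 genes with counts, fasted FH replicate 3 the highest in 22 of 35, and ob/ob FH replicate 1 the highest in 27 of 35. No such count was made over all genes. Member calls that ob/ob vector replicate 2 decides are given with and without it.

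**Figure D1:**
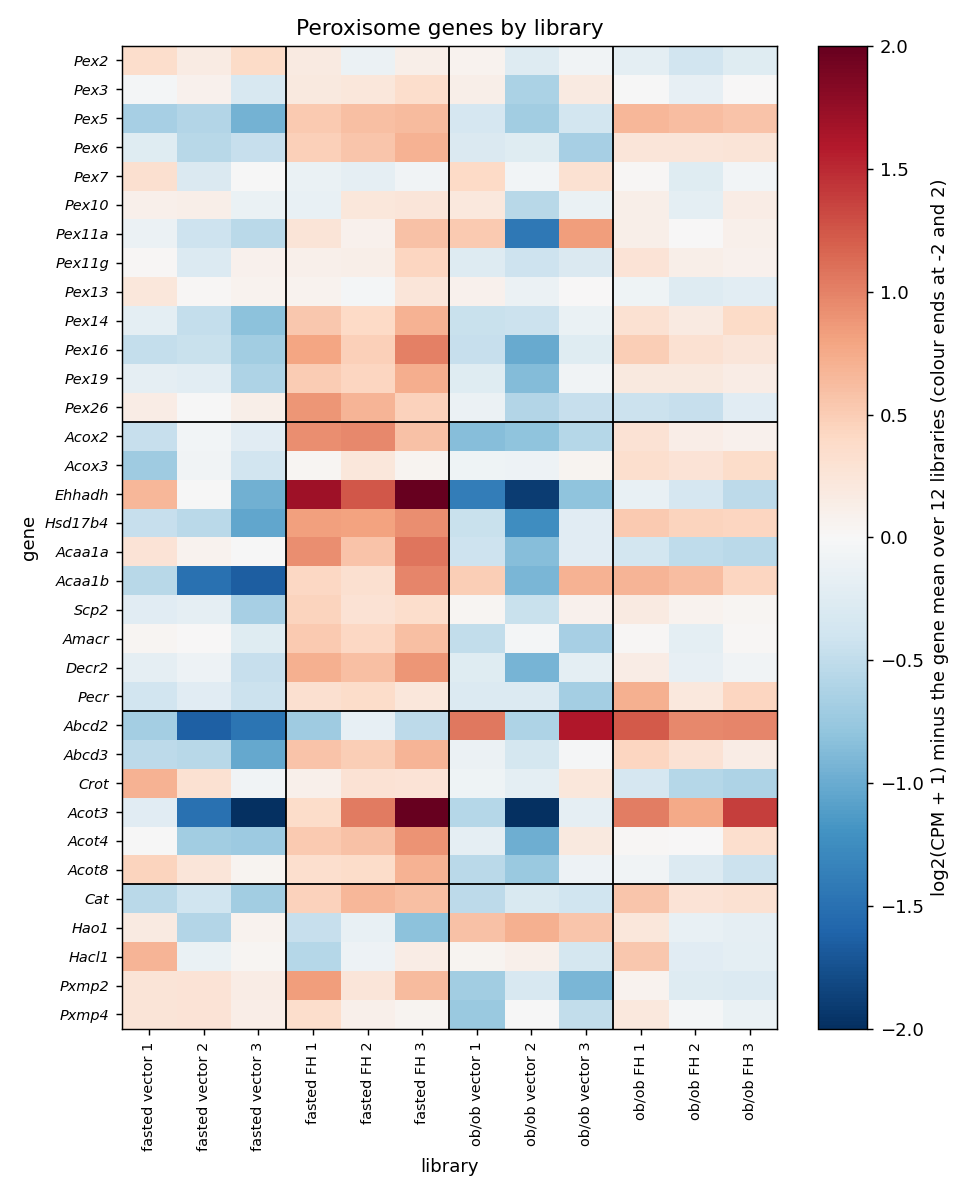
Colour shows log2(CPM + 1) of each gene minus its mean over the 12 libraries, with peroxins, beta-oxidation enzymes, carriers with thioesterases, and oxidases with other proteins separated by lines (Hao2, near 0 in fasted mice, is left out). The 3 fasted FH libraries are the most uniformly red columns in the beta-oxidation block, and ob/ob vector replicate 2 is bluer than replicates 1 and 3 for Pex11a, Acaa1b, Abcd2 and Acot3.

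With FH in fasted mice, 20 of the 35 genes rose and 0 fell, at an edgeR adjusted p under 0.05. Of all tested genes, 27.4% rose and 27.6% fell in that comparison. The median change of the 35 genes was 0.70 (log2), against -0.04 over all genes, and 12 of the 20 at least doubled, compared with 9.29% of all genes that rose by 2-fold or more. In 23 genes the 3 FH libraries all lay above the 3 vector libraries, which held for 30.4% of all genes, and in 0 did they all lie below (30.6%). On library totals, 11 genes rose and 9 fell, against 7.16% and 55.7% of all genes, and the median was 0.04.

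With FH in ob/ob mice, 15 genes rose and 2 fell (Crot and Hao1), where 25.8% of all genes rose and 27.9% fell. The median change was 0.38 against -0.01 over all genes, and 3 of the 15 at least doubled (8.75% of all genes did). The groups did not overlap in 16 genes that were higher and 2 that were lower with FH, against 30.6% and 31.2% of all genes. On library totals 1 gene rose (Pex5) and 10 fell, against 6.83% and 53.3% of all genes, with a median of -0.24. The FH effects in fasted and ob/ob mice share no library. Of the 35 genes, 13 rose in both models (37.1%, against 18.9% of all genes), 7 rose in fasted mice alone, 4 changed in ob/ob mice alone and 11 changed in neither. Of all 15228 tested genes, 2438 changed in fasted mice alone, 2234 in ob/ob mice alone and 4613 in neither, in either direction.

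**Figure D2:**
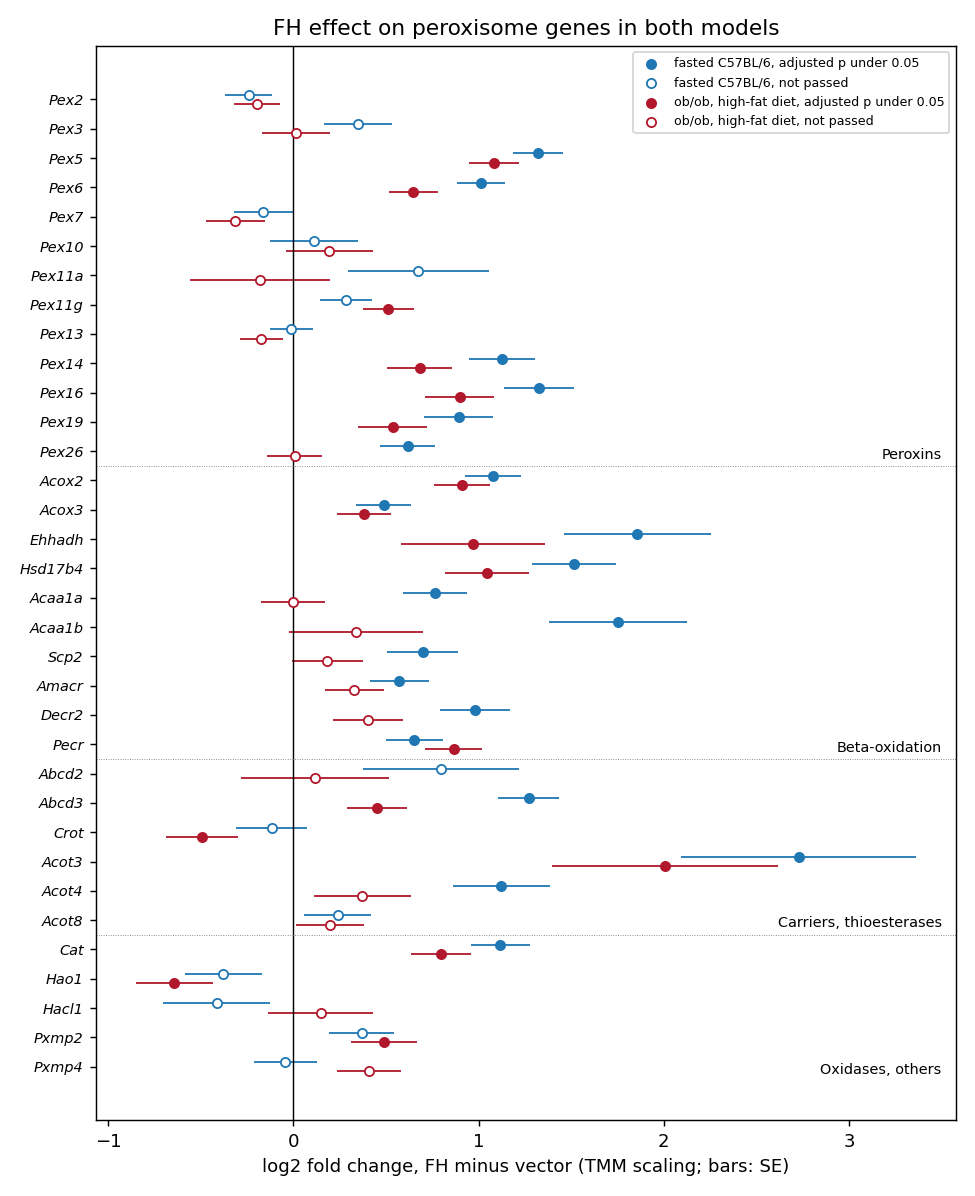
Points give the log2 fold change of FH minus vector for each gene on TMM scaling, with its SE as a bar, in fasted C57BL/6 (blue) and ob/ob (red) mice. Filled points passed an edgeR adjusted p under 0.05, and Hao2 is left out. The beta-oxidation enzymes are filled in all 10 rows for fasted mice and in 5 for ob/ob mice.

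Among the 13 peroxins, 6 rose in fasted mice and 6 in ob/ob mice, and none fell in either. All genes rose and fell by shares of 27.4% and 27.6% in fasted, and of 25.8% and 27.9% in ob/ob mice. On library totals 4 rose and 4 fell in fasted mice, where 7.16% and 55.7% of all genes did. In ob/ob mice 1 rose and 5 fell on that scaling, where 6.83% and 53.3% did. Pex5 is the cytosolic receptor that recognises the targeting signal of most peroxisomal enzymes (GRCm38 chr6:124396816-124415067, minus strand). Its level was 75.7, 79.5 and 61.7 CPM in the fasted vector libraries, 173, 183 and 186 in fasted FH, 95.02, 73.5 and 92.9 in ob/ob vector and 189.8, 184 and 179.6 in ob/ob FH. Every FH library lay above every vector library of its model. Pex5 rose by 1.32 in fasted mice (SE 0.13, edgeR adjusted p = 5.79e-06) and by 1.08 in ob/ob mice (SE 0.13, adjusted p = 2.24e-05). It was the only member to rise on library totals too in ob/ob mice (0.46, adjusted p = 0.00519).

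Pex14, the membrane docking partner of the Pex5 receptor, was at 9.29, 7.47 and 5.71 CPM in fasted vector and 16.3, 14.6 and 18.1 in fasted FH libraries, then 7.71, 7.77 and 9.73 in ob/ob vector and 13.6, 12.4 and 14.4 in ob/ob FH. The groups did not overlap in either model, and it rose by 1.12 and 0.68 (edgeR adjusted p = 0.000161 and 0.00499). Exons of an opposite-strand gene cover 28.3% of the exonic bases of Pex14 and 41.1% of those of Pex11g, and without a stated strand setting their reads cannot be told apart from the partner's. Pex6, part of the ATPase that recycles Pex5 from the membrane, rose by 1.01 in fasted and 0.65 in ob/ob mice (adjusted p = 3.53e-05 and 0.00101). Its membrane anchor Pex26 rose by 0.62 in fasted mice (adjusted p = 0.00311) and stood at 0.0081 in ob/ob mice (adjusted p = 0.969). On library totals Pex26 in fasted mice was at -0.054, on the other side of 0.

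Pex16 and Pex19 place membrane proteins in the organelle, Pex19 as their chaperone and Pex16 as a membrane receptor. Pex16 rose by 1.33 in fasted mice and 0.90 in ob/ob mice (edgeR adjusted p = 6.63e-05 and 0.0012). Pex19 rose by 0.89 (adjusted p = 0.00123) and 0.54 (adjusted p = 0.0258), the latter turning to -0.086 on library totals. Its ob/ob call was lost on leaving out ob/ob vector replicate 2 (0.35, adjusted p = 0.0695) or any 1 of the 3 ob/ob FH libraries (0.51 to 0.54, adjusted p = 0.059 to 0.0717). Their partner Pex3 stood at 0.35 in fasted and 0.014 in ob/ob mice, and did not pass in either (adjusted p = 0.124 and 0.957). Without ob/ob vector replicate 2, Pex3 passed in fasted mice (0.36, adjusted p = 0.0175).

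Pex2 and Pex10, ubiquitin ligases of the import complex, Pex13, another docking protein, and Pex7, the receptor for the second targeting signal, ranged from -0.24 to 0.11 in fasted and from -0.31 to 0.19 in ob/ob mice, with no call on all 12 libraries. Without ob/ob vector replicate 2, Pex7 fell in ob/ob mice (-0.42, edgeR adjusted p = 0.0352). Pex11g, of the family that elongates and divides the organelle, rose by 0.51 in ob/ob mice (edgeR adjusted p = 0.00692) but stood at -0.11 on library totals. Pex11a, of the same family, is a PPARα target in rodents. Its level was 149, 122 and 112 CPM in fasted vector, 193, 173 and 244 in fasted FH, 233, 59.4 and 289 in ob/ob vector and 175, 163 and 174 in ob/ob FH libraries. All 3 fasted FH libraries lay above the fasted vector libraries, whereas the ob/ob vector libraries lay on both sides of the FH ones because replicate 2 was 4.40-fold below the mean of the others. With all 12 libraries neither change passed (fasted 0.67, adjusted p = 0.147; ob/ob -0.18, adjusted p = 0.707). Without ob/ob vector replicate 2, Pex11a rose in fasted mice (0.69, adjusted p = 0.00118) and fell in ob/ob mice (-0.60, adjusted p = 0.00761).

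All 10 beta-oxidation enzymes rose in fasted mice on TMM scaling, where 27.4% of all genes did, with a median of 0.87. On library totals Acox3 (-0.18), Amacr (-0.095) and Pecr (-0.016) lay below 0. In ob/ob mice 5 of the 10 rose (Acox2, Acox3, Ehhadh, Hsd17b4 and Pecr) and 0 fell, against 25.8% and 27.9% of all genes. The median there was 0.39, and on library totals Acox3 turned to -0.24. Added together, the 10 genes reached 4572 to 7023 CPM with vector and 11090.0 to 15096 with FH in fasted mice, against 4743 to 7735 with vector and 8031 to 9117 with FH in ob/ob mice. The sums did not overlap in either pair on this scaling. On library totals the ob/ob sums overlapped, at 6369 to 10204 with vector and 7284 to 7516.5 with FH. With that scaling 4 of the 10 genes rose and 0 fell in fasted mice, where 7.16% and 55.7% of all genes did. In ob/ob mice 0 rose and 2 fell, where 6.83% and 53.3% did.

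Ehhadh, the L-bifunctional enzyme that performs the hydration and dehydrogenation steps, is a strongly PPARα-responsive gene in rodent liver (GRCm38 chr16:21761287-21787807, minus strand). It was at 1449, 906 and 469.9 CPM in fasted vector and 2981, 2160.0 and 5089.7 in fasted FH libraries. It was at 353, 244 and 522 in ob/ob vector and 828, 726 and 636 in ob/ob FH libraries. Both pairs were separate, but levels spread widely within the fasted vector group. The rise was 1.86 in fasted mice (SE 0.40, edgeR adjusted p = 0.00146) and 0.97 in ob/ob mice (SE 0.39, adjusted p = 0.0491). The ob/ob call was lost on leaving out any library of that model other than vector replicate 3, with values from 0.75 to 1.04 and adjusted p from 0.0721 to 0.131.

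Hsd17b4, the D-bifunctional enzyme for branched chain and bile acid substrates, was at 436, 417 and 292 CPM in fasted vector and 1071, 1054 and 1154 in fasted FH libraries. It was at 445, 254 and 514 in ob/ob vector and 870.4, 822 and 812 in ob/ob FH libraries. The FH libraries lay above the vector libraries in both models, and the rises were 1.52 and 1.05 (SE 0.23 and 0.22, edgeR adjusted p = 0.000102 and 0.00156). Acox2, the oxidase for bile acid precursors, rose by 1.08 and 0.91 (adjusted p = 6.03e-05 and 0.000222). Acox3, a branched chain oxidase, rose by 0.49 and 0.38 (adjusted p = 0.0126 and 0.039). Its fasted call was lost without fasted vector replicate 1 (0.28, adjusted p = 0.0942), and its ob/ob call on leaving out any ob/ob library but vector replicate 3 (0.34 to 0.41, adjusted p = 0.0614 to 0.118).

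The last step of each round is performed by thiolases, of which the mouse has the near-identical pair Acaa1a and Acaa1b, on chromosome 9. Of the 50-base windows of Acaa1b, 35.5% also occur in Acaa1a, so their counts may be partly exchanged. Acaa1a was at 257, 223 and 209.6 CPM in fasted vector, 406, 316 and 448 in fasted FH, 158, 117 and 181 in ob/ob vector and 163, 148 and 145 in ob/ob FH libraries. The fasted FH libraries were the highest of the 12, and the ob/ob groups overlapped. Acaa1b was at 606, 315 and 282 CPM in fasted vector and 1188, 1113 and 1749.8 in fasted FH libraries. It was at 1249, 470.1 and 1444 in ob/ob vector and 1433, 1367 and 1199 in ob/ob FH libraries. The fasted vector libraries and ob/ob vector replicate 2 were low, and the other 8 libraries all exceeded 1110 CPM. In fasted mice Acaa1a rose by 0.76 (edgeR adjusted p = 0.00216) and Acaa1b by 1.75 (adjusted p = 0.0014). In ob/ob mice neither passed (-0.0012 and 0.34, adjusted p = 0.996 and 0.451).

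Of the other enzymes, Scp2, which carries the thiolase for branched substrates and a sterol carrier, rose by 0.70 in fasted mice (edgeR adjusted p = 0.0071) and stood at 0.18 in ob/ob mice (adjusted p = 0.434). Amacr, the racemase that prepares branched acyl-CoAs, rose by 0.57 in fasted mice and stood at 0.33 in ob/ob mice (adjusted p = 0.00767 and 0.0949). Without ob/ob vector replicate 2, Amacr passed in ob/ob mice (0.55, adjusted p = 0.00401). Decr2, a reductase for unsaturated chains, rose by 0.98 in fasted mice (adjusted p = 0.000704) and stood at 0.40 in ob/ob mice (adjusted p = 0.0866). Pecr, an enoyl-CoA reductase, was the only enzyme of the 10 whose estimated rise was larger in ob/ob mice, at 0.65 in fasted and 0.87 in ob/ob mice (adjusted p = 0.00268 and 0.000379). The difference of those effects was 0.21, with a 95% interval from -0.28 to 0.71.

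**Figure D3:**
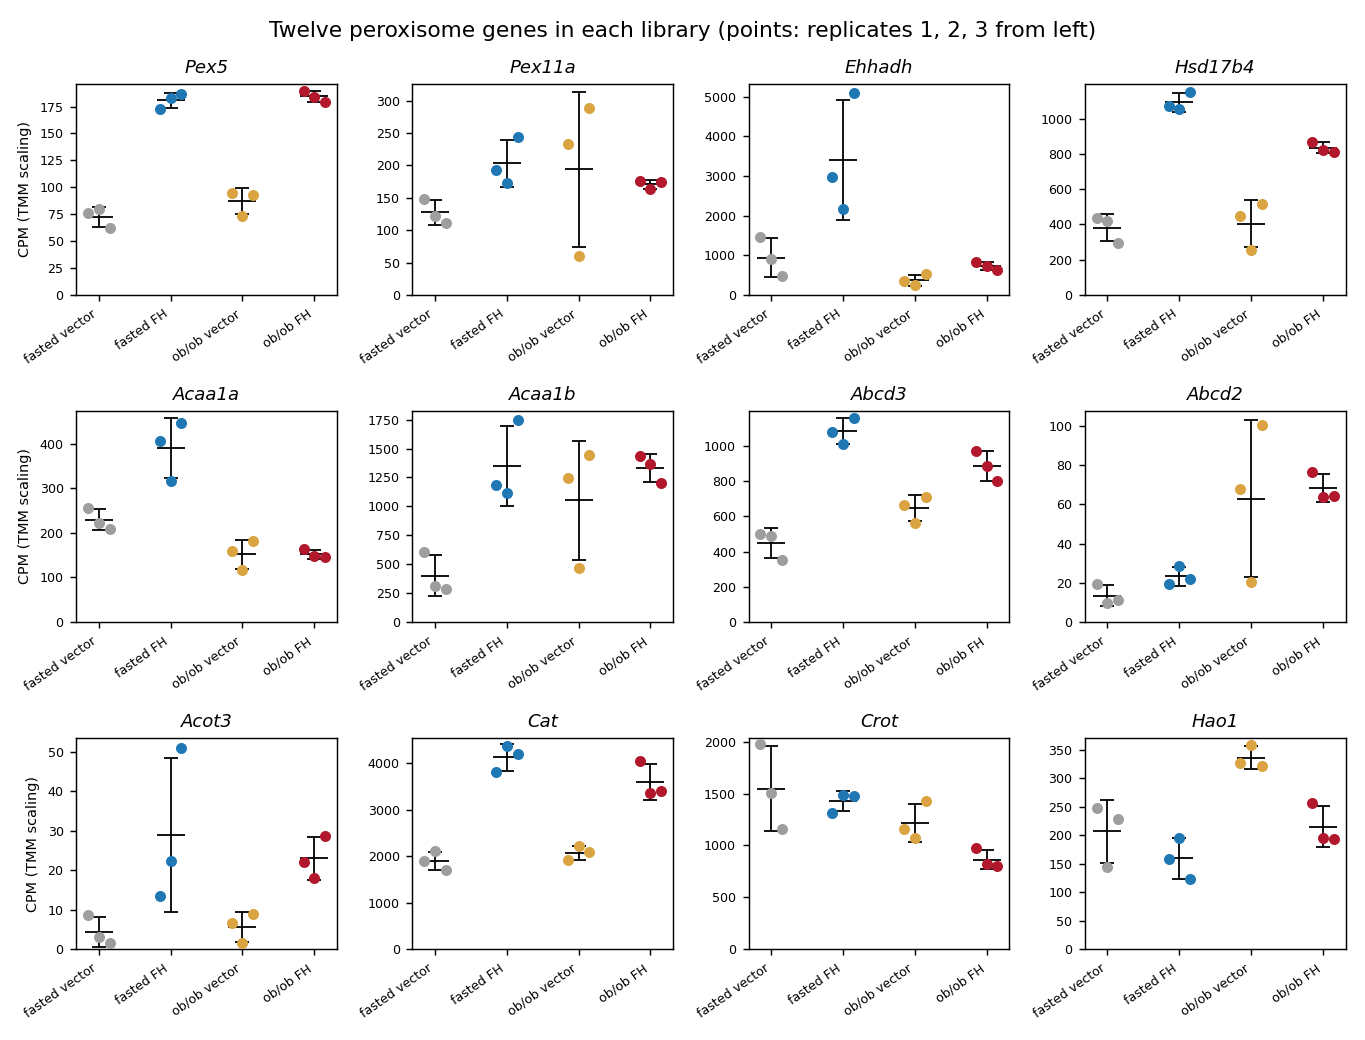
Each panel gives the level of a gene in CPM (TMM scaling, axis from 0) in the 12 libraries by group, as points for replicates 1 to 3 with the mean and SD. Pex5, Hsd17b4 and Cat separate FH from vector in both models, and ob/ob vector replicate 2 is the low point of its group for Pex11a, Acaa1b and Abcd2.

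To show the regulatory sequence of members that rose together in fasted mice, the 250 bases before the annotated start were read from RefSeq promoters (GRCm38.p6), which held 35 promoters of 29 of the 35 genes. The direct repeat bound by PPARα with its partner RXR, 2 copies of AGGTCA with 1 base (N) between, was searched on both strands with up to 2 mismatches. It was found in 2 of the 35 promoters (5.71%), those of Cat and Acot4, against 3.24% of 32851 promoters of the same length. Capitals mark the match, which overlaps no CCAAT box.
Cat promoter, chr2:103485154-103485403, minus strand: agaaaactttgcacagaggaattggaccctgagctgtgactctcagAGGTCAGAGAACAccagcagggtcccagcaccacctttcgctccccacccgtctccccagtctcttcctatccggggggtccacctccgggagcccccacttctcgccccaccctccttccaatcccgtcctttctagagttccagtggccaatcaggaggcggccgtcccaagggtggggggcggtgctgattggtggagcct
Acot4 promoter, chr12:84038129-84038378, plus strand: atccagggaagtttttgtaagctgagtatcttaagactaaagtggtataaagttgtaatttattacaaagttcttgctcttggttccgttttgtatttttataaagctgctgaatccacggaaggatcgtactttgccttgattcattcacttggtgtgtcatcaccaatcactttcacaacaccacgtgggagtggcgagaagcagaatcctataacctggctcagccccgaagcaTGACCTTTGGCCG

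The motif CCAAT (both strands, no mismatch) was found in 17 of the 35 promoters (48.6%), against 33.8% of all. The promoters of the paired thiolases are shown with it in capitals, since these genes share coding sequence but differed in level between the models.
Acaa1a promoter, chr9:119341044-119341293, plus strand: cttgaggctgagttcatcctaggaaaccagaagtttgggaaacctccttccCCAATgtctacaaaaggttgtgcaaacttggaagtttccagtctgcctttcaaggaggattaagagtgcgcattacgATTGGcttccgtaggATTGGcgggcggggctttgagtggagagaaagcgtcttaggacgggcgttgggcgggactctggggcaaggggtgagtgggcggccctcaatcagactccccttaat
Acaa1b promoter, chr9:119157094-119157343, minus strand: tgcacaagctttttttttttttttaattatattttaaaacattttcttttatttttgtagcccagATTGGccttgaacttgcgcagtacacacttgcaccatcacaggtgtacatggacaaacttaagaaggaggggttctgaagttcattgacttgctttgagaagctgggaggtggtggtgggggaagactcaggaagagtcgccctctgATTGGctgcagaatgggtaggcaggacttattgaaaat
Acaa1a holds 3 matches and Acaa1b 2. A match describes letters in this window and is no evidence of binding.

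Of the 6 carriers and thioesterases, 3 rose in fasted mice, where 27.4% of all genes did. In ob/ob mice 2 rose and 1 fell, where 25.8% and 27.9% of all genes did. On library totals 2 rose and 2 fell in fasted mice, where 7.16% and 55.7% of all genes did. In ob/ob mice 0 rose and 2 fell on that scaling, where 6.83% and 53.3% did. Abcd3, the carrier for branched and long chain acyl-CoAs, was at 501, 490.4 and 353 CPM in fasted vector and 1076, 1011 and 1158 in fasted FH libraries. It was at 665, 564 and 710.2 in ob/ob vector and 971, 883 and 798 in ob/ob FH libraries. The FH libraries lay above the vector libraries in both models. Abcd3 rose by 1.27 in fasted mice (SE 0.17, edgeR adjusted p = 3.6e-05) and by 0.45 in ob/ob mice (SE 0.16, adjusted p = 0.0318), where library totals gave -0.18. The ob/ob call was lost without vector replicate 1 or 2 or FH replicate 1 or 2 (0.36 to 0.49, adjusted p = 0.0553 to 0.13). Abcd2, the related carrier for very long and polyunsaturated chains, did not pass in either model (0.80 and 0.12, adjusted p = 0.124 and 0.823). Leaving out ob/ob vector replicate 2, it passed in fasted mice (0.81, adjusted p = 0.0073).

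Acot3 and Acot4 are thioesterases that release free acids from acyl-CoAs, lie beside each other on chromosome 12 and share few sequence windows (3.58% of those of Acot3). Acot3 was at 8.72, 3.05 and 1.53 CPM in fasted vector and 13.6, 22.3 and 50.9 in fasted FH libraries. It was at 6.61, 1.58 and 8.99 in ob/ob vector and 22.1, 18.1 and 28.7 in ob/ob FH libraries. All FH libraries exceeded all vector libraries of both models, though at low levels. Its rises were the largest of the members called, at 2.73 (SE 0.64, edgeR adjusted p = 0.00263) in fasted and 2.01 (SE 0.61, adjusted p = 0.0132) in ob/ob mice. Acot4 rose by 1.12 in fasted mice (adjusted p = 0.00271) and stood at 0.37 in ob/ob mice (adjusted p = 0.242), where leaving out vector replicate 3 gave 0.68 (adjusted p = 0.0428). Acot8, a thioesterase of broad range, passed in neither (0.24 and 0.20, adjusted p = 0.281 and 0.386).

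Crot, which attaches shortened chains to carnitine for export to mitochondria, was at 1976, 1508 and 1162 CPM in fasted vector and 1312, 1489 and 1480.3 in fasted FH libraries. It was at 1155, 1069.9 and 1424 in ob/ob vector and 971, 819.7 and 799 in ob/ob FH libraries. The fasted groups overlapped, and the ob/ob FH libraries lay below the vector libraries. Crot fell by 0.49 in ob/ob mice (edgeR adjusted p = 0.0444) and stood at -0.12 in fasted mice (adjusted p = 0.626). The ob/ob call was lost without vector replicate 1 or 3 or FH replicate 2 or 3 (-0.52 to -0.35, adjusted p = 0.073 to 0.176).

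Cat, the catalase that removes hydrogen peroxide made by the oxidases, was at 1896, 2102 and 1708 CPM in fasted vector and 3814, 4364 and 4199 in fasted FH libraries (GRCm38 chr2:103453849-103485160, minus strand). It was at 1914, 2223 and 2086 in ob/ob vector and 4050.5, 3353 and 3407 in ob/ob FH libraries. Vector levels were alike in both models and every FH library was higher. Cat rose by 1.12 in fasted and 0.80 in ob/ob mice (SE 0.16 and 0.16, edgeR adjusted p = 7.36e-05 and 0.000947).

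Hao1, the glycolate oxidase of hepatocytes, was at 248, 145 and 229 CPM in fasted vector and 158, 196 and 124 in fasted FH libraries, then 328, 359 and 322 in ob/ob vector and 257, 196 and 193 in ob/ob FH. The ob/ob FH libraries lay below the ob/ob vector libraries, and the fasted groups overlapped. Hao1 fell by 0.64 in ob/ob mice (edgeR adjusted p = 0.0187) and stood at -0.38 in fasted mice (adjusted p = 0.138). The ob/ob call was lost without FH replicate 2 (-0.57, adjusted p = 0.0734) or 3 (-0.59, adjusted p = 0.062), and the fasted change passed without vector replicate 2 (-0.57, adjusted p = 0.024). Pxmp2, a channel of the membrane, rose by 0.49 in ob/ob mice (adjusted p = 0.0312), with -0.14 on library totals. That call was lost without vector replicate 1 or 3 or FH replicate 1 (0.35 to 0.47, adjusted p = 0.0785 to 0.151). Pxmp4, another membrane protein, and Hacl1, the lyase of alpha-oxidation, passed in neither model (from -0.41 to 0.41). Leaving out ob/ob vector replicate 2, Pxmp4 passed in ob/ob mice (0.65, adjusted p = 0.00205) and Pxmp2 in fasted mice (0.38, adjusted p = 0.0361).

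**Figure D4:**
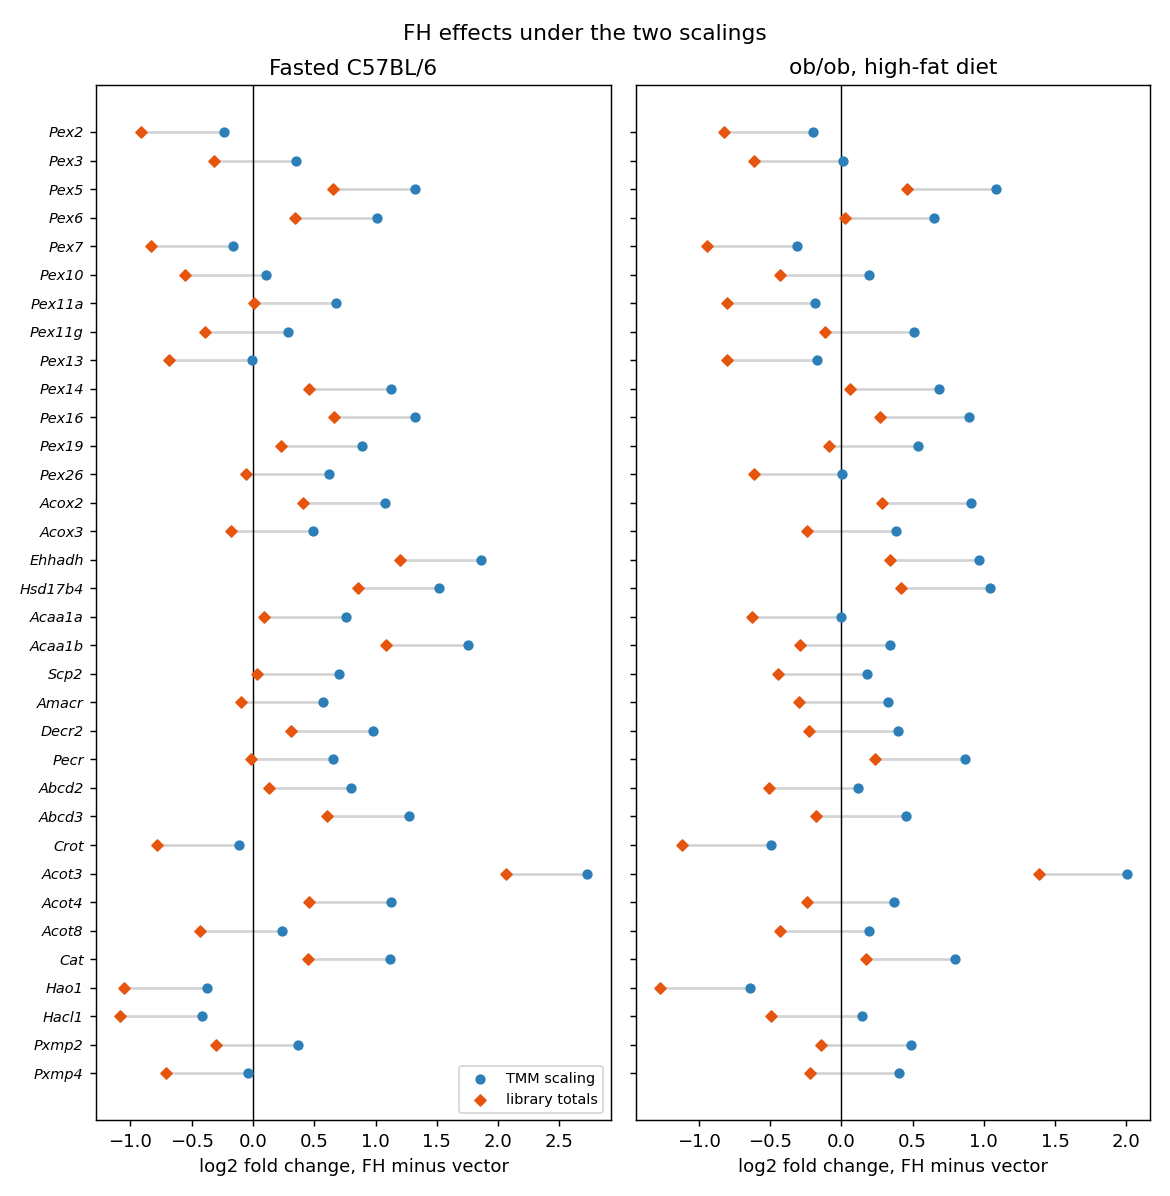
Each row joins the log2 fold change of FH minus vector on TMM scaling (circles) with that on library totals (diamonds), in fasted (left) and ob/ob (right) mice, without Hao2. Library totals lie to the left for every gene shown, as does the median of all genes (-0.71 in fasted and -0.63 in ob/ob mice). This moves 9 genes from above to below 0 in fasted and 17 in ob/ob mice, with no such count made over all genes. Of the genes called on TMM, these are Acox3, Pex26, Amacr and Pecr in fasted mice, and Pex11g, Pex19, Acox3, Abcd3 and Pxmp2 in ob/ob mice.

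The test of the difference of the FH effects compared ob/ob with fasted mice directly. The log2 fold change with FH was higher in fasted than in ob/ob mice for 28 of the 35 genes, against 8815 of 15228 tested genes. The median difference was -0.36 (log2), against -0.10 over all genes. With all 12 libraries 1 of the 35 differed, Abcd3, lower by -0.82 (SE 0.23, edgeR adjusted p = 0.0445), where 3.65% of all genes were lower and 4.77% higher. The call was lost on leaving out any 1 library other than ob/ob vector replicate 2, with adjusted p from 0.0521 to 0.153. It was also lost with DESeq2 size factors (adjusted p = 0.0542), without a filter on low counts (0.0527) and with a replicate block (0.0602). No other member passed the adjusted test. Unadjusted 95% intervals left out 0 for Pex26 (from -1.09 to -0.13), Acaa1a (from -1.33 to -0.20) and Acaa1b (from -2.60 to -0.23) as well as Abcd3, whereas they ran from -0.67 to 0.19 for Pex5, from -0.84 to 0.20 for Cat and from -2.15 to 0.37 for Ehhadh.

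Without ob/ob vector replicate 2, 9 of the 35 genes differed, 8 lower and 1 higher, where 4.85% of 16003 tested genes were lower and 5.47% higher. The 8 lower ones were Acaa1b (-1.77, edgeR adjusted p = 0.00768), Pex11a (-1.29, adjusted p = 0.00285), Abcd2, Acot4, Acaa1a, Abcd3, Decr2 and Pex26, ranging up to -0.71. The higher one was Pxmp4 (0.68, adjusted p = 0.0387). All 12 libraries share 1 fit, and the count of members that rose in fasted mice also went from 20 to 24 without it (28.8% of all genes), of which the cause was not tested. In ob/ob mice 13 then rose and 4 fell (Pex7, Pex11a, Crot and Hao1), where 24.3% and 25.6% of all genes did.

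**Figure D5:**
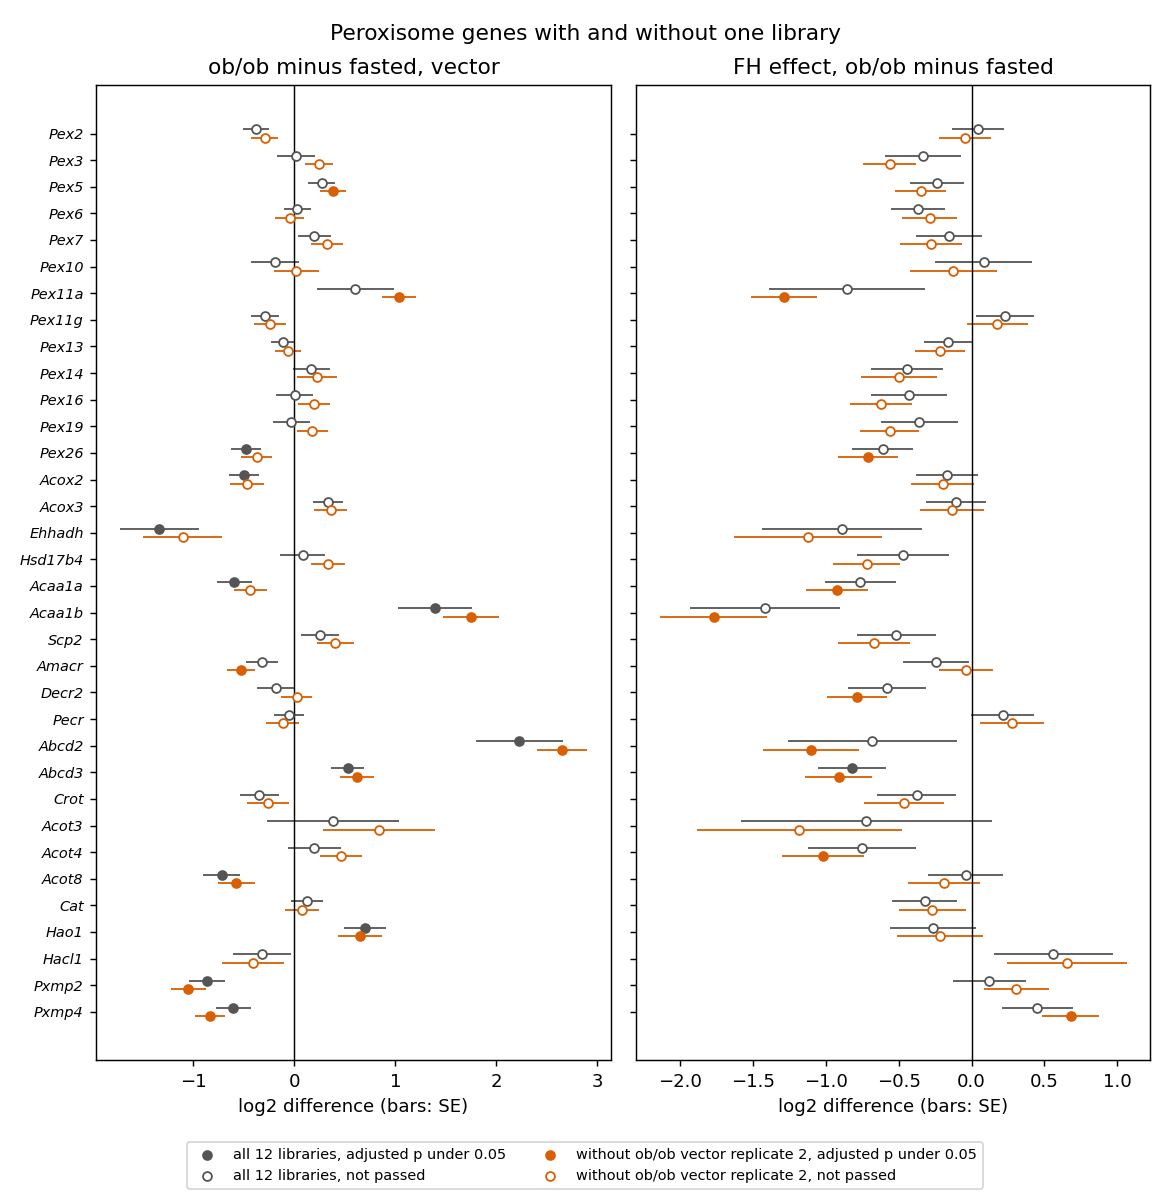
Points with SE bars give, for each gene, the log2 difference between ob/ob and fasted vector libraries (left) and between the FH effects in ob/ob and fasted mice (right), with all 12 libraries (grey) and without ob/ob vector replicate 2 (orange). Filled points passed an edgeR adjusted p under 0.05, and 1 grey and 9 orange points are filled on the right.

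Comparing ob/ob with fasted mice under vector alone, 5 genes were higher and 7 lower, where 9.36% of all genes were higher and 8.18% lower. The groups did not overlap in 4 genes that were higher and 7 that were lower, against 14.8% of all genes either way, and on library totals 7 genes were higher and 3 lower, against 17.9% and 4.21%. This comparison shares its vector libraries with those above, and strain, diet and fasting differ together. Abcd2 was at 19.6, 9.69 and 11.02 CPM in fasted and 67.8, 20.6 and 100.3 in ob/ob vector libraries. Every ob/ob library was above every fasted one, replicate 2 only narrowly, and the difference was 2.23 (SE 0.43, edgeR adjusted p = 0.0034). The thiolases went opposite ways, Acaa1b higher by 1.39 (adjusted p = 0.0199) and Acaa1a lower by 0.59 (log2 -0.59, adjusted p = 0.0309). Abcd3 (0.53) and Hao1 (0.70) were also higher. Ehhadh (-1.34), Pxmp2 (-0.86), Acot8 (-0.72), Pxmp4 (-0.61), Acox2 (-0.50) and Pex26 (-0.48) were lower.

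The calls for Abcd2, Hao2 and Pxmp2 held without any 1 vector library, and the other 9 were each lost without at least 1 of them. Over these fits the count of called members ranged from 4, without ob/ob vector replicate 1, to 11, without ob/ob vector replicate 2. It was 5 without fasted vector replicate 2 or 3, and 7 without fasted vector replicate 1 or ob/ob vector replicate 3. Calls over all genes also varied in these fits, from 1669 to 3412. Without ob/ob vector replicate 2, Pex11a was higher by 1.04 (edgeR adjusted p = 0.000349) and Pex5 by 0.38 (adjusted p = 0.0495). That fit called 7 members higher and 4 lower, against 11.7% and 9.62% of all genes. There Ehhadh stood at -1.10 (adjusted p = 0.0566) and Acaa1a at -0.43 (adjusted p = 0.0687). Pex26 and Acox2 were not called (-0.37 and -0.47, adjusted p = 0.106 and 0.0543), and Amacr was (-0.53, adjusted p = 0.0131).

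Hao2, an oxidase of long chain 2-hydroxy acids, was found almost only in ob/ob mice. It had 0 counts in all 3 fasted vector libraries, which allows up to 0.179 to 0.213 CPM at 3 counts per library, and 1, 1 and 0 counts in the fasted FH libraries. In ob/ob vector libraries it had 317, 5 and 468 counts (18.4, 0.263 and 24.5 CPM), and in ob/ob FH libraries 897, 377 and 744 (46.4, 19.6 and 34.9 CPM). Replicate 2 of ob/ob vector was thus near the fasted level, 81.6-fold below the mean of replicates 1 and 3. The mean of the ob/ob vector libraries was at least 67.6-fold higher than the floor of 3 counts in a fasted vector library. On library totals 12 female-biased liver genes summed to 5.43 to 563 CPM in ob/ob vector and 949 to 1300 in ob/ob FH libraries. Their sums were 57.8 to 130 CPM in fasted vector and 37.6 to 55.3 in fasted FH libraries. Whether Hao2 follows sex-biased expression, strain, diet or fasting was not tested. The 3 ob/ob FH libraries overlapped the ob/ob vector libraries, and the FH effect there did not pass (edgeR adjusted p = 0.201, and 0.0635 without replicate 2). It did pass with a replicate block (1.85, adjusted p = 0.0435) and without a filter on low counts (1.24, adjusted p = 4.61e-10). FH and sex cannot be told apart in this pair.

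Per kilobase of annotated exon (GENCODE M21), levels of the members spanned about 3 orders of magnitude. In fasted vector libraries Scp2 was highest at 943 ± 164 CPM per kb (SD, n = 3), followed by Cat at 728 ± 75.5, Ehhadh at 316 ± 164.5 (from 158 to 486), Crot at 284 ± 74.9 and Acaa1b at 204 ± 91.0. Scp2 and Cat lay above the others beyond their spread, whereas Ehhadh, Crot and Acaa1b overlapped. With FH in fasted mice the order at the top was Cat at 1579 ± 108, Scp2 at 1532 ± 82.8 and Ehhadh at 1144 ± 507, with the ranges of the first pair overlapping. The highest peroxin was Pex11a at 40.1 ± 5.99 CPM per kb in fasted vector libraries, close to Pex2 at 38.1 ± 3.16, and the lowest was Pex14 at 1.19 ± 0.285. The 35 genes together took 1.115 to 1.475% of counts in fasted vector, 1.444 to 1.727% in fasted FH, 1.32 to 1.804% in ob/ob vector and 1.329 to 1.395% in ob/ob FH libraries.

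Of 51 other peroxisomal genes tested, 29 rose and 5 fell with FH in fasted mice, where 27.4% and 27.6% of all genes did. In ob/ob mice 19 rose and 10 fell, against 25.8% and 27.9% of all genes. The medians were 0.52 and 0.33. On library totals the counts were 10 and 16 in fasted mice, against 7.16% and 55.7% of all genes. They were 2 and 22 in ob/ob mice, against 6.83% and 53.3%. Tysnd1, the protease that trims imported enzymes, rose by 1.14 and 0.92 in fasted and ob/ob mice, and Lonp2, a peroxisomal protease, by 0.92 in ob/ob mice. Far1, which makes the fatty alcohols of ether lipids, fell by 2.7 in fasted and by 1.68 in ob/ob mice (edgeR adjusted p = 2.05e-06 and 1.72e-05). Phyhd1 fell by 1.97 and 3.21, and Acbd5, a tether to the endoplasmic reticulum, fell by 1.05 in ob/ob mice.

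Of 23 genes made up of PPARα, its partner receptor Rxra and known PPARα targets, 17 rose and 1 fell (Pdk4, a kinase that restrains pyruvate dehydrogenase) in fasted mice. In ob/ob mice 10 rose and 0 fell, and the medians were 0.93 and 0.47. All genes rose and fell by shares of 27.4% and 27.6% in fasted, and of 25.8% and 27.9% in ob/ob mice. On library totals 7 rose and 1 fell in fasted mice, against 7.16% and 55.7% of all genes. There 4 rose and 3 fell in ob/ob mice, against 6.83% and 53.3%, with medians of 0.27 and -0.14 in fasted and ob/ob mice. Cpt2, of the mitochondrial carnitine shuttle, rose by 1.53 and 1.09, and Rxra, the partner receptor of PPARα, by 1.64 and 1.04. Ppara itself rose by 0.75 in fasted mice (edgeR adjusted p = 0.0281) and stood at 0.079 in ob/ob mice (adjusted p = 0.821). In the vector libraries 1 target was higher in ob/ob than in fasted mice (Fabp1, 1.59) and 6 were lower, among them Cyp4a10 (-3.76) and Angptl4 (-1.18). In that comparison 9.36% of all genes were higher and 8.18% lower. The 9 hepatocyte markers, for comparison, had medians of 1.28 and 1.02 with FH in fasted and ob/ob mice on TMM scaling, and of 0.61 and 0.39 on library totals.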

How the data were processed

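RNA-seq of mouse liver was analysed from 12 libraries in 4 groups, assigned by the sample labels. The authors deposited a table of counts per gene, used here unchanged. STAR 2.7.11a and GRCm39 are named in the submitters' processing notes, and per the labels' protocols a stranded Illumina mRNA kit was used on 1 µg of TRIzol total RNA. Details of read assignment to genes (tool, annotation, strand) were not given in the sources used here. Symbols were matched to GENCODE M21 (GRCm38) for spelling, exonic length and opposite-strand overlap, which 16 of the 35 genes have.

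A quasi-likelihood F test in edgeR 4.0.16 (R 4.3.3, TMM scaling) was fitted to all 12 libraries at once, leaving 8 residual degrees of freedom. Genes needed 10 counts in enough libraries and 15 in total (filterByExpr). FH was compared with vector within fasted and within ob/ob mice, the effects were compared with each other, and ob/ob vector was compared with fasted vector. Benjamini-Hochberg adjustment ran over all 15228 tested genes, with calls under 0.05, and each SE belongs to a log2 fold change. The 95% intervals of differences use 8 degrees of freedom. Floors of 3 counts cover counting error only. The steps were tested on simulated data.

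Alternatives were scaling to library totals, DESeq2 size factors, DESeq2 1.42.0 as the test, no filter, only the groups compared, a replicate block and leaving out each library. The members and lists were chosen with earlier results of these data known. Named genes are the members, up to 4 called genes in each direction from each other list, Ppara, Fh1 and the sex-linked genes. A few of these are not reported here.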

Additional observations from a re-analysis of the deposited data

Results flagged for a closer look

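The FH effect on Abcd3, the carrier of branched and long chain acyl-CoAs, differed between the models by the test of the difference itself (ob/ob minus fasted, -0.82 on the log2 scale, SE 0.23, edgeR adjusted p = 0.0445). The rise was 1.27 in fasted and 0.45 in ob/ob mice. All 3 FH libraries lay above all 3 vector libraries in each model. The call was lost on leaving out any 1 library other than ob/ob vector replicate 2, where the difference was -0.91 (adjusted p = 0.0195). DESeq2 size factors, no filter on low counts and a replicate block also lost it (adjusted p = 0.0542, 0.0527 and 0.0602). FH and sex cannot be told apart in the ob/ob pair.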

How the results depend on the processing

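On library totals 11 members were higher and 9 lower with FH in fasted mice, against 7.16% and 55.7% of all genes. In ob/ob mice 11 were called, 1 higher and 10 lower, against 6.83% and 53.3% of all genes. In the vector comparison 3 were lower, against 4.21%. With FH the median of all genes stood at -0.71 in fasted and -0.63 in ob/ob mice on that scaling. Sign changes were counted for the members only, 9 of the 35 turning below 0 in fasted and 17 in ob/ob mice. Among the genes compared under every setting, those in fasted mice were Pex26 (-0.054), Acox3 (-0.18), Acot8 (-0.43), Amacr (-0.095) and Pecr (-0.016), and those in ob/ob mice were Pex11g (-0.11), Pex19 (-0.086), Acox3 (-0.24), Acaa1b (-0.29), Scp2 (-0.44), Abcd3 (-0.18), Acot4 (-0.24), Acot8 (-0.43) and Pxmp2 (-0.14). The difference for Acot8 became 0.0030. These follow the shift of the median gene given above. For the difference of the FH effects, 0 members were called with DESeq2 size factors (0 lower), 5 without a filter (5 lower, not Abcd3) and 3 with the DESeq2 test (3 lower). The share of all genes called under these settings is not given here, so the counts are no result about the members. With only the compared groups fitted, 2 members were called in the vector comparison, 1 higher (Abcd2) and 1 lower (Pxmp2), of 1244 genes in all. Hao2 did not pass the count filter of that fit and was not tested there. The cause of the other lost calls was not tested.

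The replicate block, which assumes that equal numbers pair libraries, left 1 member lower in ob/ob mice and 0 called (0 lower) for the difference. It gave 20 in fasted mice, 17 in ob/ob mice and 11 in the vector comparison. The share of all genes called under the block is not given here either. Same-number correlations of deviations were -0.12 to 0.02 in fasted, -0.11 to 0.10 in ob/ob and -0.21 to 0.05 between vector libraries, so the numbers were not taken as pairs. Acaa1a in ob/ob mice, near 0 throughout, was at 0.016 under the block and 0.012 without a filter.

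Leaving out 1 library of the compared groups at a time, fasted calls ranged from 19 to 21 (lower from 0 to 1). Ob/ob calls ranged from 11 to 17 (higher from 10 to 16, lower from 0 to 4). Calls of the difference ranged from 0 to 9 (higher from 0 to 1, lower from 0 to 8), and vector calls from 4 to 11 (higher from 2 to 7, lower from 2 to 5). Over all genes the calls numbered 7215 to 8062 in fasted mice and 7007 to 8109 in ob/ob mice. They numbered 582 to 1651 for the difference and 1669 to 3412 for the vector comparison. Values that crossed 0 were Crot in fasted mice (-0.27 to 0.042), Pex11a (-0.60 to 0.24) and Acaa1a (-0.14 to 0.16) in ob/ob mice, and Acot8 for the difference (-0.19 to 0.18). In the vector comparison they were Hsd17b4 (-0.13 to 0.33), Acot3 (-0.11 to 1.31) and Acot4 (-0.088 to 0.48). The 10 ob/ob calls kept without any 1 library were Pex5, Pex6, Pex11g, Pex14, Pex16, Acox2, Hsd17b4, Cat, Acot3 and Pecr. With 3 libraries a group, small changes were not detectable, and at low counts (Acot3, Hacl1, Pex10, Pex14, Hao2) counting error adds to the spread.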
